A study of Mus musculus with 8 samples.

Results

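The baseline transcriptome of mouse 3T3-L1 adipocytes was described from the control libraries of a study on the microRNA miR-690. The 4 libraries labelled as controls were used, out of 8 samples, with every one of the 10663 genes that the deposited table lists. The other samples, labelled as overexpressing miR-690, were not used here, and no comparison with them was made. 3T3-L1 is an established clonal line of mouse embryonic fibroblasts that can be turned into fat cells in culture. Per the labels, the cells were adipocytes at passage 2 to 3, kept in a medium with 4.5 g/L glucose, 1% GluMax, 10% FBS and 2% P/S. The treatment field of every sample, controls included, names the miR-690 mimic at 5 pM for 500000 cells, and no source used here tells what the controls were given instead. Nothing in the labels ties the 4 libraries to separate cultures, so the spread given for them may be technical.

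Fat cells store triglyceride in a lipid droplet coated with perilipins, take up fatty acids with the help of lipases, transporters and binding proteins, and release them again by lipolysis. 3T3-L1 cells start as fibroblasts that make collagen-rich matrix. A hormone mixture starts the factors Pparg and Cebpa, which switch on the fat cell programme. A differentiated dish usually holds fat cells beside fibroblasts that did not convert. In RNA from a whole dish, fewer cells of a type and less RNA per cell cannot be told apart.

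The values are CPM, the reads of a gene per 1000000 reads over all listed genes. A long transcript gives more reads than a short one at the same number of molecules, so genes are ranked here by CPM as a share of reads. Levels of different genes are compared only per length, as CPM divided by transcript length and rescaled to a sum of 1000000. Depth over the listed genes ran from 29773446 to 33816227 reads, and the median gene of a library had 1410.5 reads. Each pair of libraries differed by more than sampling noise (chi-square per degree of freedom from 3.96 to 8.03), so none was taken for a repeated deposit of another. The Spearman correlation across genes, which are not independent replicates, lay between 0.997 and 0.998 for the pairs.

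The labelled cell type was checked first. The 3 defining fat cell genes were all abundant. Fabp4, the fatty acid binding protein of fat cells, stood at 6751, 6946, 6232 and 6361 CPM in replicates 1, 2, 3 and 4. Adiponectin, the fat cell hormone encoded by Adipoq, stood at 784, 855, 705 and 772 CPM. Plin1, which coats the lipid droplet, stood at 323, 350.0, 306 and 316 CPM. In each of these genes replicate 2 was the highest and replicate 3 the lowest.

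Of 23 adipocyte markers 20 were listed, and 15 of them were among the 1000 genes with the highest mean CPM, against 9.38% of all listed genes. The markers Lep, Pck1 and Cidea were not listed. Here and below, a gene that is not listed need not be unexpressed. The glycolysis gene Eno1 and the ribosomal protein gene Rpl26 were not listed either. Among the fixed markers, Pparg stood at 308 CPM ± 12.9 (SD, n = 4), Cebpa at 233 CPM ± 13.9, Lipe, the hormone-sensitive lipase, at 543 CPM ± 60.2, and Cidec, which enlarges lipid droplets, at 458 CPM ± 34.6. The insulin-responsive glucose transporter Slc2a4 was much lower in the ranking, at 27.8 CPM ± 3.07, place 7009 of 10663.

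Markers of preadipocytes and fibroblasts were present beside them, with 19 of 24 entries listed and 8 among the 1000 highest. Pref1, an entry that was not found, is another name of Dlk1, which was listed. Dlk1, a preadipocyte protein, stood at 1274, 1342, 1524 and 1388 CPM. Pdgfra, the growth factor receptor of fibroblasts, stood at 568 CPM ± 49.4, Thy1 at 194 CPM ± 8.31 and Ly6a at 124 CPM ± 7.89, while Cd34 was not listed. The part of unconverted cells in these levels was not tested.

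Few markers of other cell types were listed, and those that were stood below the median gene of the table at 45.5 CPM. Of 10 macrophage markers 3 were listed, Cd14 at 20.4 CPM, Lyz2 at 4.26 CPM and Cd68 at 1.33 CPM, and Adgre1, Csf1r, Ptprc and Itgam were not listed. Of 10 endothelial and blood markers only Egfl7 was listed, at 3.40 CPM. Of 10 skeletal muscle markers only Des was listed, at 24.8 CPM, and of 8 epithelial markers only Krt19, at 2.78 CPM. Summed over each list, these markers took between 0.000278% and 0.00260% of the reads.

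The listed genes spanned from 0.0873 to 8183 CPM by their means. The median gene stood at 45.5 CPM, with quartiles at 19.6 and 93.6 CPM. There were 92 genes at 1000 CPM or more, 2454 at 100 CPM or more and 22 under 1 CPM. The 10 highest genes took 4.48% ± 0.0522 of the reads (SD, n = 4), the 100 highest 17.6% ± 0.146, and 1027 genes together held 50% of the reads. Protein-coding genes, 10391 of the listed ones, held 99.3% of the reads, and none of 11 genes of the mitochondrial genome was listed.

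**Figure D1:**
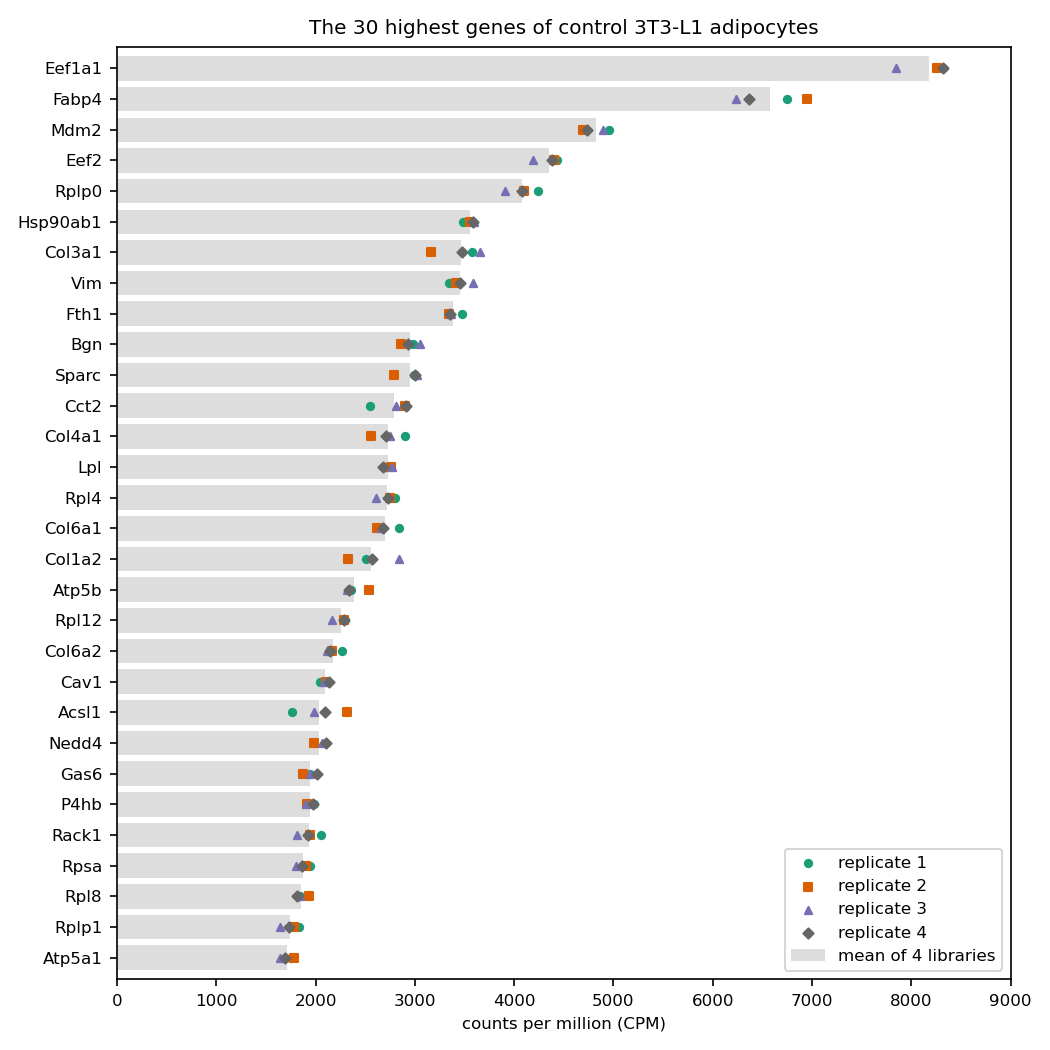
CPM of the 30 genes with the highest mean, as bars for the mean of the 4 control libraries and points for each library, on a linear axis from 0. Eef1a1 and Fabp4 stand clear of all others at means of 8183 and 6573 CPM, and the points of most genes lie close together, with a wide range for Acsl1 from 1761 to 2319 CPM.

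The first 5 places were held by the same genes in the same order in each of the 4 libraries. Eef1a1, the factor that brings aminoacyl-tRNA to the ribosome, came first with 8315, 8254, 7842 and 8321 CPM. Fabp4 came second at 6573 CPM ± 333. Mdm2, the ubiquitin ligase that restrains p53, held the third place with 4960, 4691, 4898 and 4736 CPM. Eef2, which moves the ribosome along the messenger RNA, followed at 4351 CPM ± 110.1, and Rplp0, a ribosomal stalk protein, at 4083 CPM ± 137. Eef1a1, Fabp4, Mdm2 and Eef2 did not overlap in their ranges over the libraries, while Rplp0 reached 4240 CPM in replicate 1 and so overlapped Eef2, at 4188 CPM in replicate 3.

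Below them the ranges of neighbouring genes mostly overlapped, so their order is loose. Hsp90ab1, a cytosolic chaperone, stood at 3556 CPM ± 49.1, the collagen Col3a1 at 3467 CPM ± 217, Vim, the intermediate filament vimentin, at 3452 CPM ± 102, and Fth1, the ferritin heavy chain that stores iron, at 3387 CPM ± 60.6. Fth1 was separated from the next gene, Bgn, a matrix proteoglycan, at 2955 CPM ± 79.7 in every library. Further matrix genes in the first 30 places were Sparc, Col4a1, Col6a1, Col1a2 and Col6a2, from 2951 down to 2173 CPM. With Col3a1, Bgn and P4hb, a protein disulphide isomerase that also serves collagen synthesis, 8 of the 30 belong to the list of collagens and matrix.

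Genes of protein synthesis were Rpl4, Rpl12, Rpl8, Rplp1, Rpsa and Rack1, from 2721 to 1747 CPM. Genes of fat handling were Lpl, the lipase that frees fatty acids from lipoproteins, at 2731 CPM ± 40.2, Cav1, the coat protein of caveolae, at 2091 CPM ± 39.8, and Acsl1, which activates fatty acids with coenzyme A. Acsl1 had the widest spread of the 30, with 1761, 2319, 1982 and 2091 CPM and a coefficient of variation (CV, the SD as a percent of the mean) of 11.4%. The mitochondrial ATP synthase subunits Atp5b and Atp5a1 stood at 2389 CPM ± 104 and 1717 CPM ± 61.4.

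Of the 30 highest genes, 27 were among the 30 highest in every single library, as were 90 of the 100 highest and 953 of the 1000 highest. The remaining genes of the first 30 were Cct2, a chaperonin subunit, Nedd4, a ubiquitin ligase, and Gas6, a ligand of TAM receptors. Nedd4 stood at 1982, 1982, 2060 and 2110 CPM. Its relatives, chosen after their values were seen, ranged per length from 11.5 for Nedd4l to 68.2 for Smurf2, against 773 ± 28.3 for Nedd4.

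Ranked per length, Fabp4 moved to the first place, at 15339 ± 667 on that scale, ahead of Eef1a1 at 9540 ± 221. This place depends on the length taken for it, since with the union of all exons Fabp4 stood below Rplp1, Eef1a1 and Rplp0, and 13 of the 20 highest genes were shared. Fth1 followed at 7625 ± 137, Rplp1 at 7321 ± 283 and Rplp0 at 6288 ± 180. The other ribosomal proteins among the 20 highest included Rpl32, Rpl9, Rpl8, Rps14, Rps15, Rps21, Rps12, Rpl12, Rpl4 and Rps27, from 5441 to 2987. Between them stood the lectin Lgals1 at 4382 ± 85.7 and the calcium binding S100a4 at 4287 ± 308. Vim at 3293 ± 119 and Mdm2 at 3254 ± 98.2 came 18th and 19th. Only 14 of the 30 highest genes by CPM were also among the 30 highest per length. Col3a1, seventh by CPM, came 100th per length. Per length the 10 highest genes held 6.96% and 503 genes held 50% of the total.

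**Figure D2:**
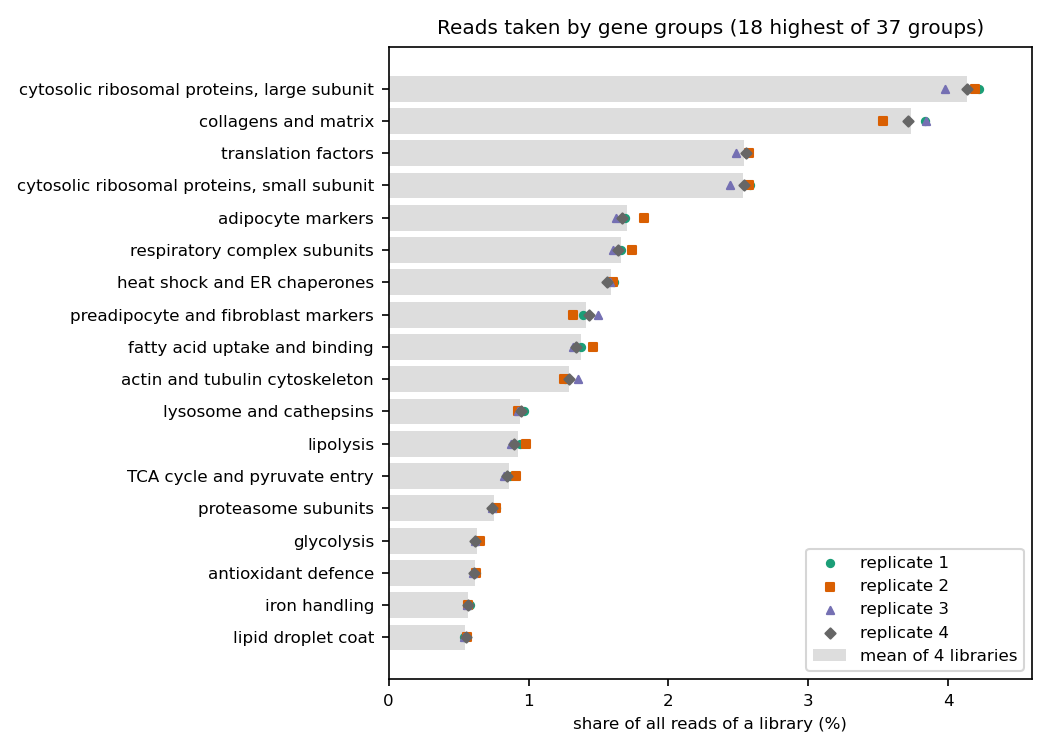
Share of all reads, in percent, taken by each of the 18 gene groups with the highest mean of 37 groups, as bars for the mean of the 4 control libraries and points for each library, on a linear axis from 0. Large-subunit ribosomal proteins lead with a mean of 4.13%, followed by collagens and matrix with 3.73%; a gene can belong to more than one group.

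By gene group, protein synthesis took the most reads. The 46 listed proteins of the large ribosomal subunit took 4.13% ± 0.108, with 43 among the 1000 highest genes. The 32 proteins of the small subunit took 2.54% ± 0.0666, and all 32 were among the 1000 highest. The 22 translation factors took 2.54% ± 0.0417, led by Eef1a1, Eef2, Tpt1 at 1658 CPM ± 46.3 and Eef1b2 at 1449 CPM ± 56.0, and ending with the cap-binding protein Eif4e at 133 CPM ± 1.39. Per length the large subunit proteins alone held 9.33%. In both subunits the members lay close together in the libraries, with median CVs of 2.90% and 3.37%. Ribosomal protein genes and Eef1a1 have many near-identical processed copies in the genome, so their values are uncertain where the counting could split reads.

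Messages of ribosomal proteins are known to start with a C followed by an unbroken run of pyrimidines, through which growth signals control their translation. The bases around the start, 10 before it and 15 from it on, are given here for abundant genes of this class that have an entry in the RefSeq promoter table (GRCm38.p6) within 20 bases of the GENCODE start, with Mdm2 and Col3a1 beside them. The sequences run 5′ to 3′, and capitals mark the longest run of C and T letters found from 5 bases before the start to 10 bases from it on.
Eef1a1, chr9:78481710-78481734, minus strand: ctccgCCCTCTTCCCgagggtgggg
Rack1, chr11:48800350-48800374, plus strand: gccgcTCTTTCTTTTTCTCCacagg
Rpl13a, chr7:45128731-45128755, minus strand: cctgcgacaagaCCTCCTCCtttcc
Rplp0, chr5:115559457-115559481, plus strand: cgggtTTCgaggaccgcctggttct
Eef2, chr10:81176621-81176645, plus strand: aaggccgggcgTTgacgtcagcggt
Mdm2, chr10:117710744-117710768, minus strand: ggcttccggcgTTCTCTCCgcggac
Col3a1, chr1:45311528-45311552, plus strand: actgctgaggggatgggTTCtgctc

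Within that window the run had 10 letters in Eef1a1, 15 in Rack1 and 8 in Rpl13a and in Mdm2. It had 3 in Rplp0 and in Col3a1 and 2 in Eef2. In Rack1, Rpl13a, Rplp0 and Col3a1 C or T letters go on past the window, so their runs are longer than counted. Of the 8 most abundant ribosomal protein genes with such an entry, Rpl13a alone had a run of at least 6 within the window. There Rplp0, Rpl4, Rpl9, Rps4x, Rpl6, Rpl19 and Rpl23 had 2 to 5 letters, and the runs of Rpl9 and Rpl19 also go on past it. A run of at least 6 C or T letters in that window was found in 13 of 33 large subunit genes (39.4%) and in 11 of 24 small subunit genes (45.8%) with an entry. With entries within 20 bases of the GENCODE start alone, the run was found in 3 of 14 large subunit genes (21.4%) and 4 of 8 small subunit genes, against 12.1% of 4833 listed genes. Its share was 12.4% over the 8543 listed genes with an entry and 12.8% over all 32851 promoters of the table. It was 25.3% over the 75 of the 100 highest genes that have an entry and 11.8% over 17 translation factors. A run is a description of these letters, and the annotated starts may be off, by more than a few bases in some genes. In Eef1a1 and Rplp0 the letters tatataa and tataaaa, of the kind a TATA box holds, lie after the start used. The runs given for these genes may therefore not be the start of the message. Rpl13a, Rpl6, Rpl19 and Rpl23 were named after their values were seen.

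The matrix made up the second largest group. Its 38 collagens and matrix genes, all listed, took 3.73% ± 0.145 of the reads, and 28 were among the 1000 highest. Col3a1, Bgn, Sparc and the basement membrane collagen Col4a1 led it, and Timp3, an inhibitor of matrix metalloproteases, was the lowest at 5.98 CPM ± 0.323. Long messages weigh here, since the group held 2.04% per length. The actin and tubulin cytoskeleton took 1.29% ± 0.0449, with Vim, Actb at 1395 CPM ± 36.9, Tubb5 at 1090 CPM ± 50.3 and Cfl1 at 735 CPM ± 12.7.

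The fat cell groups followed. Adipocyte markers took 1.70% ± 0.0862 of the reads and the 12 listed genes of fatty acid uptake and binding 1.37% ± 0.0634, both led by Fabp4, Lpl and Acsl1 and therefore overlapping. Fabp5, the second fatty acid binding protein, stood at 1024, 1070, 810 and 866 CPM. In lipogenesis, 20 of 21 genes were listed, with the desaturases Scd2 at 1092 CPM ± 43.4 and Scd1 at 968 CPM ± 63.7, fatty acid synthase Fasn at 448 CPM ± 8.85 and the citrate carrier Slc25a1 at 396 CPM ± 28.0. In lipolysis, Pnpla2, the first lipase of triglyceride breakdown, stood at 882 CPM ± 55.0 and its activator Abhd5 at 454 CPM ± 16.3. The beta-adrenergic receptors Adrb1 and Adrb3 were not listed. Aqp7, the glycerol channel of fat cells, was the lowest lipolysis gene at 4.32 CPM ± 0.580.

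In triglyceride synthesis, Gpd1, which makes glycerol phosphate, stood at 661, 842, 649 and 695 CPM. Agpat2, Dgat2 and Dgat1, which add fatty acids in later steps, stood at 334 CPM ± 35.7, 259 CPM ± 28.9 and 242 CPM ± 20.3. On the lipid droplet, Cavin1, a caveola protein, stood at 1163 CPM ± 14.9 and Cav2 at 455 CPM ± 18.6. Of the secreted proteins, complement C3 stood at 1011 CPM ± 35.0, Agt, the angiotensin precursor, at 726 CPM ± 46.5, and Nampt at 370.5 CPM ± 10.0. Among transcription factors of fat cell formation, Rxra, the partner of Pparg, took the most reads at 385 CPM ± 9.57 and Srebf1 stood at 151 CPM ± 6.24. Per length Pparg stood higher, at 364 ± 12.8 against 185 ± 10.2 for Cebpa and 164 ± 3.56 for Rxra. The listed genes of heat-producing fat cells were low. Of 11 in the list 5 were listed, from Gk, glycerol kinase, at 19.4 CPM ± 0.467 to Cox7a1 at 0.783 CPM ± 0.201, and Ucp1, Dio2 and Prdm16 were not listed.

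The mitochondrial groups were high as well. All 46 respiratory complex subunits were listed, took 1.66% ± 0.0573 of the reads, and 34 of them were among the 1000 highest. After Atp5b and Atp5a1 came Atp5g3 at 696 CPM ± 23.4 and Cox4i1 at 680 CPM ± 21.7. The lowest was Atp5l at 0.665 CPM ± 0.0444, far from the other ATP synthase subunits, and how the counting treated this small gene is unknown here. All 25 genes of the TCA cycle and pyruvate entry were listed, with 17 among the 1000 highest. Pyruvate carboxylase Pcx led them at 1105, 1205, 1018 and 1059 CPM, followed by Mdh2 at 966 CPM ± 49.5 and Cs at 600 CPM ± 23.6. In glycolysis, Aldoa stood at 1540 CPM ± 86.7 and Pkm at 1184 CPM (CV 0.760%).

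Iron storage, chaperones and lysosomes were prominent, too. Of 12 listed genes of iron handling, Fth1 and Ftl1, at 1238 CPM ± 6.34, far exceeded the next, Aco1, at 255 CPM ± 16.5. Ftl1, the ferritin light chain, had a narrow spread, from 1233 to 1247 CPM. Chaperones took 1.59% ± 0.0206, led by Hsp90ab1, P4hb, Calr at 1384 CPM ± 31.4 and Hspa5 at 1113 CPM ± 69.2, while the small heat shock protein Hspb1 stood at 2.59 CPM ± 0.191. Lysosomal genes took 0.940% ± 0.0212, led by Psap at 1483 CPM ± 16.0, Lamp1, Npc2 and cathepsin D, Ctsd, at 937 CPM ± 38.8.

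Genes of DNA replication and mitosis were all 24 listed, at a median of 95.7 CPM. Ccnd1, cyclin D1, led them at 312 CPM ± 13.9, with Rrm1, a subunit of ribonucleotide reductase, at 246 CPM ± 7.55, Cdkn1a, the p53-induced inhibitor of the cell cycle, at 245 CPM ± 6.64 and the topoisomerase Top2a at 237 CPM ± 11.6. The lowest was the mitotic kinase Aurkb at 33.8 CPM ± 4.10. Immediate early genes had a median of 34.8 CPM, where the median gene of the table stood at 45.5 CPM. They ran from Klf6 at 142 CPM ± 5.93 to Fos at 3.47 CPM ± 1.08. Genes of the interferon response and of MHC class I were led by B2m at 383 CPM ± 12.4 and Ifitm3 at 323 CPM ± 16.7.

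The third place of Mdm2 stood out, and its chromosomal neighbours were examined after its value was seen. Mdm2 owes its name to double minute chromosomes of a mouse 3T3 derivative on which it was found amplified. It lies on the minus strand at chr10:117688875-117710758 (GRCm38, GENCODE M21). Within 1 Mb of it 29 coding genes are annotated, of which 12, Mdm2 included, were listed, and 8 of these were among the 1000 highest genes, where the background is 9.38%. On the lower side, Cct2 stood at 2549, 2897, 2809 and 2913 CPM, Yeats4 at 547, 532, 518 and 575 CPM, Cpsf6 at 274 CPM ± 9.86 and Frs2 at 210 CPM ± 9.55. On the upper side, Slc35e3 stood at 1034, 1067, 1031 and 1038 CPM, Nup107 at 882, 889, 888 and 933 CPM and Rap1b at 570, 610, 612 and 657 CPM. Not all neighbours were high, as Rab3ip stood at 101 CPM ± 3.30, Mdm1 at 87.2 CPM ± 2.99, Cpm at 25.6 CPM ± 1.32 and Lyz2 at 4.26 CPM ± 0.285.

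**Figure D3:**
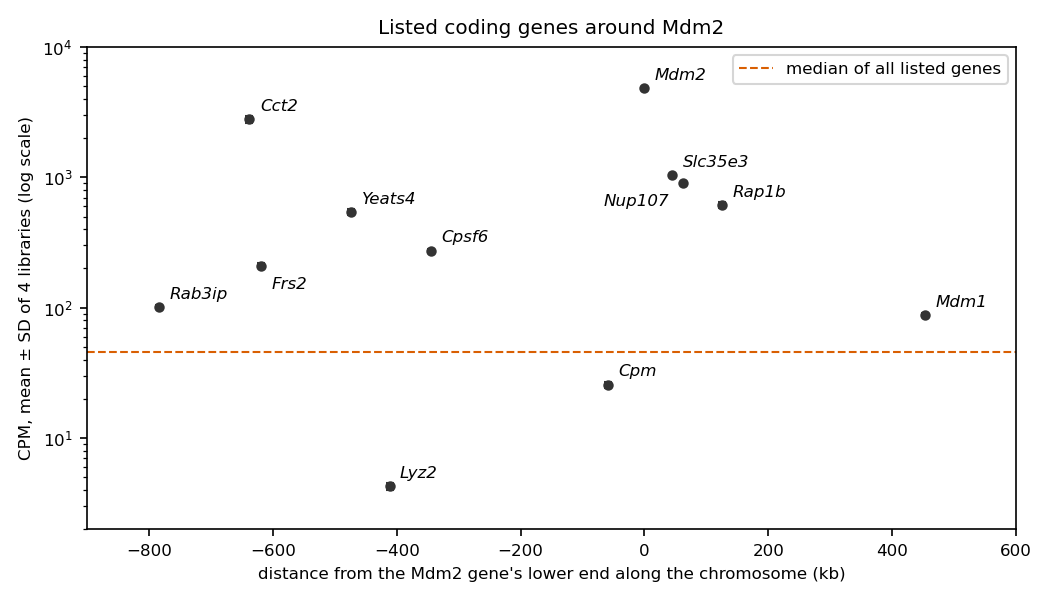
Mean CPM ± SD of 4 control libraries, on a log axis, of the 12 listed coding genes within 1 Mb of Mdm2, against the distance between the lower ends of the genes in kb. The bars are mostly smaller than the points; 10 of the 12 lie above the median of all listed genes at 45.5 CPM (dashed line), and Cpm and Lyz2 lie below it.

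Windows of consecutive listed coding genes were then ranked over all chromosomes by their median CPM. Of 10311 windows of 5 genes, 3 overlapping ones that contain Mdm2 shared the highest median of 898 CPM, where the middle window had 47.1 CPM. With 7 genes, 4 of 10271 windows, all around Mdm2, shared the highest median of 612 CPM, and with 9 genes 3 of 10231 shared that of 543 CPM. Per length the best placed window around Mdm2 held place 4 with 5 genes, place 3 with 7 and place 1 with 9. This search was made after the values were seen, and the copy number of the region was not measured here.

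Proteins that work in the same complex as a neighbour of Mdm2 were compared with it per length, again chosen after their values were seen. Cct2 is one of 8 subunits of the CCT chaperonin, which folds actin and tubulin and contains each subunit once per ring. It stood at 2981 ± 183, while the subunits Tcp1, Cct3, Cct4, Cct5, Cct7 and Cct8 ranged from 426 for Cct7 to 763 for Cct5. For Cct6a the preferred transcript is an incomplete model of 411 nt, on which it stood at 2634 ± 60.8, and with its longest coding transcript it stood at 468. Nup107, a scaffold protein of the nuclear pore, stood at 603 ± 17.4. Its partners in the Y complex ranged from 16.6 for Nup160 to 95.2 for Nup85, apart from Sec13, which also serves vesicle coats, at 404 ± 12.1. Yeats4, a subunit of chromatin modifying complexes, stood at 856 ± 38.3, and 10 other members ranged from 11.5 for Srcap to 199 for Morf4l1. Rap1b, a small GTPase, stood at 470.1 ± 28.6 and its relative Rap1a at 38.7 ± 1.80. Mdm4, the partner of Mdm2, stood at 17.1 ± 1.04 and Trp53, the gene of p53, at 134 ± 4.95. In each of these comparisons the gap to the nearest gene was larger than the SDs of both. These SDs are spreads between libraries and do not tell how far partner genes usually differ. The other listed neighbours, Slc35e3, Cpsf6, Frs2, Rab3ip, Mdm1, Cpm and Lyz2, were not compared with partners.

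The libraries were alike. The median CV between them was 4.51% over the 10641 genes with a mean of at least 1 CPM, with quartiles at 2.95% and 6.67%. Counting error alone gives a median of 2.65% at these depths, and the median excess over it was 3.32%. Above 100 CPM the median CV was close to 3.2% to 3.3% at every level, while below 10 CPM it was 9.40%. A CV above 10% was found in 1012 genes, 9.51% of those with at least 1 CPM, and a CV above 20% in 78. A typical gene of a library lay 2.98% ± 0.207 from the mean of the 4 libraries, with replicate 4 the closest at 2.67%. Between any pair of libraries, 12 to 53 genes differed by more than 1.5-fold.

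**Figure D4:**
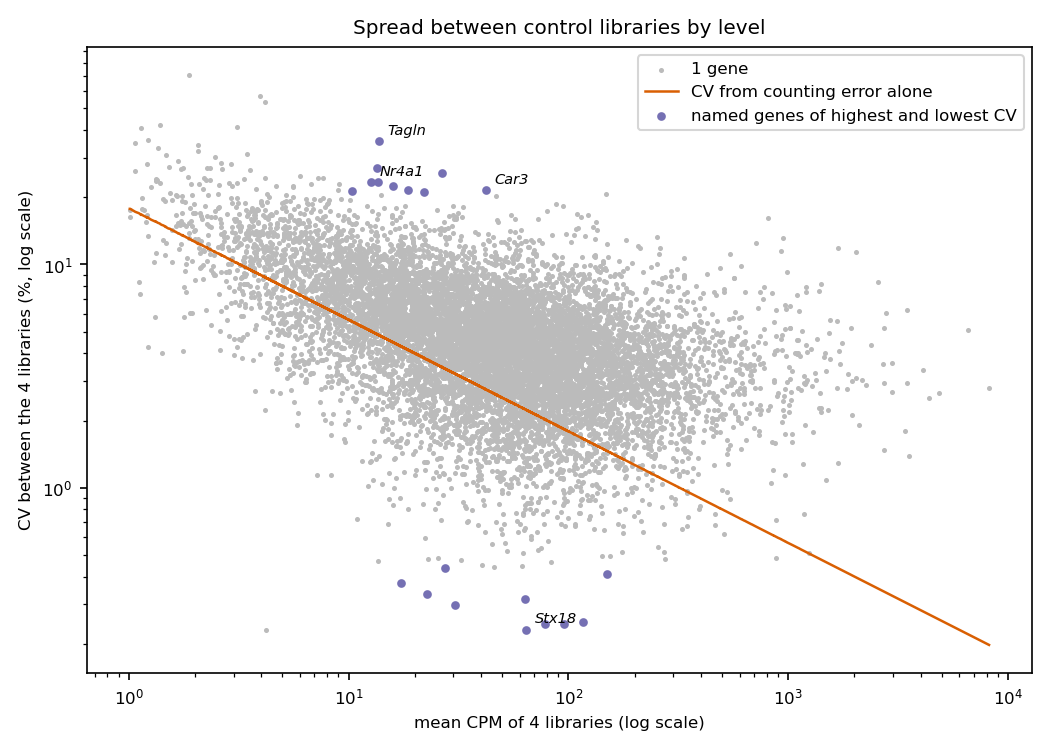
CV between the 4 control libraries in percent against mean CPM, both on log axes, for the 10641 genes with a mean of at least 1 CPM, with the line that counting error alone would give. The cloud follows the line at low CPM and stays above it at high CPM, and Tagln, at a CV of 35.6%, has the highest CV among genes of at least 10 CPM.

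Among genes of at least 10 CPM the 10 highest CVs ran from 21.1% to 35.6%. Tagln, an actin binding protein of smooth muscle and myofibroblasts, stood at 9.84, 10.3, 20.4 and 14.5 CPM. Id2, an inhibitor of basic helix-loop-helix factors, stood at 9.87, 12.5, 18.5 and 13.0 CPM. Both genes, and Grem1, Zfp935 and the mitotic kinesin Kif18b, were highest in replicate 3 and lowest in replicate 1. Nr4a1, an immediate early nuclear receptor, stood at 16.8, 12.8, 10.9 and 10.1 CPM, and Dusp6, a phosphatase induced by ERK signals, at 18.3, 12.4, 11.6 and 11.98 CPM, both highest in replicate 1. Car3, a carbonic anhydrase abundant in fat cells, was highest in replicate 2, at 36.8, 55.8, 37.7 and 38.5 CPM. Col28a1 was lowest in replicate 2, at 12.8 CPM against 19.4 to 21.7 CPM.

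The lowest CVs were smaller than counting error alone gives. Stx18, a syntaxin of the endoplasmic reticulum, stood at 64.3, 64.4, 64.5 and 64.1 CPM, a CV of 0.232% where counting gives 2.23%. Asph, Tusc3, Osbp, Mterf3, Eps15l1, Znrf2, Arhgef3, Calcoco1 and Fntb followed, with CVs up to 0.438%. With 4 libraries such values occur among many genes, and they were picked for being the lowest. At the bottom of the ranking were Gm1821, a processed pseudogene at 0.0873 CPM with 1, 3, 3 and 4 reads, the antisense gene Gm15972, the histone genes Hist1h4h and Hist2h2bb, and Rpph1, the RNA of ribonuclease P, all of which had at most 24 reads in a library.

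The small differences between the libraries were shared by genes of the same group in many groups, but not in all. Highest values were spread over replicates 1, 2, 3 and 4 in 3, 8, 6 and 3 of 20 adipogenic transcription factors, in 10, 6, 4 and 7 of 27 genes of insulin signalling, in 6, 8, 4 and 4 of 22 translation factors and in 7, 4, 7 and 4 of 22 interferon-stimulated and MHC class I genes. Of the 20 listed adipocyte markers, 17 were highest in replicate 2, where 23.6% of all genes are highest, and 13 were lowest in replicate 3, where 22.3% of all genes are lowest. Their median deviation from their own mean over the libraries was 9.34% in replicate 2 and -6.21% in replicate 3, against -0.41% and -2.54% in replicates 1 and 4. Acsl1, Dgat2 and Lipe were among those with replicate 2 well above the rest, Lipe with 562, 619, 485 and 506 CPM. The summed share of the group was 1.69%, 1.82%, 1.62% and 1.67% of the reads in replicates 1 to 4.

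Mitochondrial genes followed the same order with a smaller span. Of 46 respiratory subunits, 41 were highest in replicate 2 and 30 lowest in replicate 3, with median deviations of 4.30% and -3.23%. The counts were 22 and 18 of 25 for the TCA cycle and pyruvate entry, 19 and 16 of 23 for fatty acid oxidation, and 14 and 11 of 21 for the breakdown of branched-chain amino acids. Hibadh, Bcat2, Aldh6a1 and Ivd led the last group, and Bcat2, its first enzyme, stood at 267, 291, 239 and 259 CPM. In fatty acid oxidation, Acadm, the medium-chain dehydrogenase, stood at 338, 368, 328 and 350.3 CPM.

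Genes of fibroblasts stood the other way round. Of 19 markers of preadipocytes and fibroblasts, 14 were highest in replicate 3, where 30% of all genes are highest, and 11 lowest in replicate 2, where 27.7% of all genes are lowest. Their median deviation was 7.16% in replicate 3 and -7.44% in replicate 2. Postn, the matrix protein periostin, stood at 1372, 1261, 1518 and 1480 CPM, and Col1a1, chosen after its values were seen, at 1203, 1096, 1318 and 1197 CPM. The cytoskeleton showed 24 of 30 genes highest in replicate 3 and 15 lowest in replicate 2. In the collagens and matrix 20 of 38 were highest in replicate 3, 14 in replicate 1 and 22 lowest in replicate 2. Of 24 genes of DNA replication and mitosis, 22 were highest in replicate 3, by a median of 6.13%, but 13 were lowest in replicate 1, where 29% of all genes are lowest, and 6 in replicate 2.

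**Figure D5:**
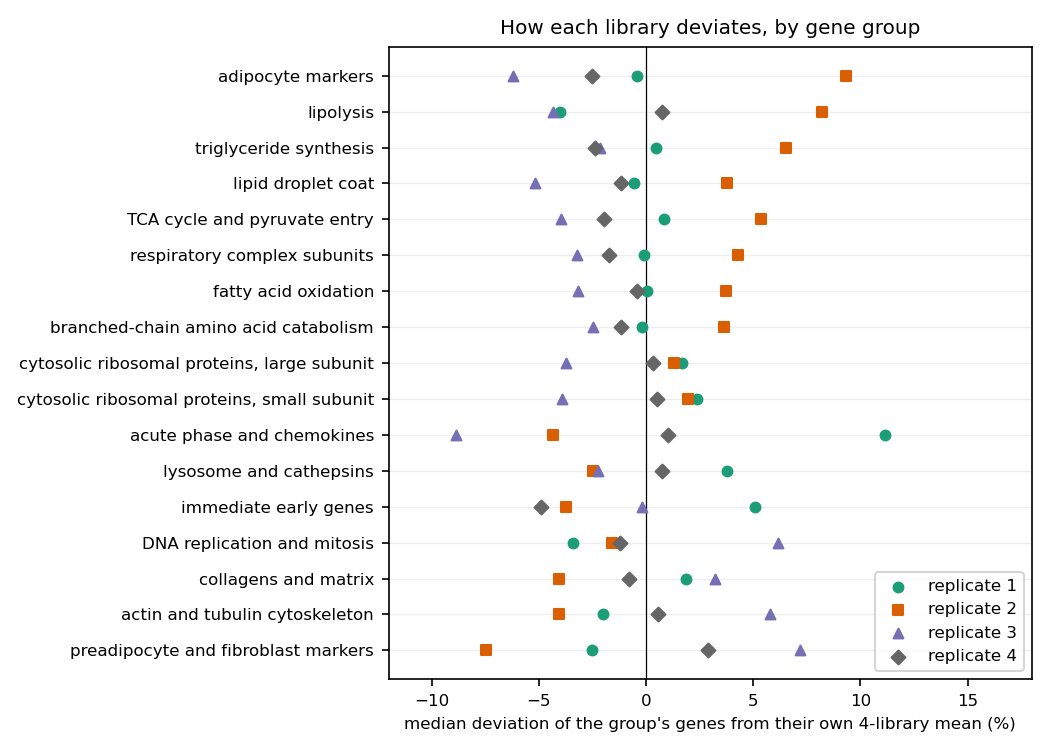
Median over the genes of a group of the deviation of a library from the gene's own mean over 4 control libraries, in percent, with 1 point per library for each of 17 selected gene groups. Adipogenic transcription factors, insulin signalling, translation factors and interferon genes, whose highest values were spread over the libraries, are not shown. Replicate 2 lies highest and replicate 3 lowest for adipocyte markers, at 9.34% and -6.21%, with the opposite order for preadipocyte and fibroblast markers, at -7.44% and 7.16%, while replicate 1 lies highest for acute phase genes and chemokines, at 11.2%.

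Ribosomal proteins shared the low values of replicate 3. Of the large subunit 37 of 46 and of the small subunit 28 of 32 were lowest in replicate 3, at median deviations of -3.73% and -3.90%, and 24 and 17 were highest in replicate 1, where 23.0% of all genes are highest. In replicate 2, 15 of each subunit were highest, and the median deviations of 1.33% and 1.94% were close to the 1.70% and 2.38% of replicate 1. Replicate 1 stood apart in other groups. It was highest for 14 of 20 immediate early genes and for 15 of 24 lysosomal genes, at median deviations of 5.08% and 3.77%. It was also highest for 10 of 16 acute phase genes and chemokines, at a median of 11.2%, and Lcn2, lipocalin 2, stood at 133, 111, 96.6 and 102 CPM, with Serpina3n, chosen after its values were seen, at 105, 89.7, 83.0 and 91.8 CPM. Cxcl12, a chemokine made by stromal cells, had its high values in replicates 3 and 4 instead, at 532, 520.4, 619 and 602 CPM.

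Other values of the libraries were read beside this order. The factors that rescale the libraries lay between 0.996 and 1.01, and depth was 30746587 reads in replicate 2 and 29773446 in replicate 3, with 33816227 in replicate 4. Depth did not follow the order, in which replicate 4, the deepest, lay between replicates 2 and 3. Transcript length moved with the order in part. Over the 2648 genes with the shortest transcripts the median deviation of replicate 2 was 1.11% and over the 2649 with the longest -2.44%, and replicate 3 had -0.68% and 1.17%. Replicate 4 had -0.60% and 1.44%. With the median of each of 4 length classes subtracted, adipocyte markers still deviated by 8.29% in replicate 2 and -6.33% in replicate 3, and preadipocyte and fibroblast markers by -6.52% and 6.94%. The share of converted cells in each library was not measured, and its part in this order was not tested.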

How the data were processed

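RNA sequencing values of the 4 control libraries were analysed. The deposited table was named as RPKM, but each control column summed to 1000000 and had no length term, so the values the authors deposited were taken as CPM. All values in each column were whole multiples, within 0.1 read, of 1 step, which gave the reads per library used for depth, counting error and the check for repeated libraries. Intervals and counting CVs cover counting error only. Trimmomatic 0.38, edgeR 3.20.9 and mm10 appear, without their roles, in the submitters' processing notes. The aligner, read counter and strandedness were not given in the sources used here, so reads of overlapping genes cannot be told apart. The other 4 sample columns were not used.

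Of the entries, 10475 were matched to GENCODE release M21 by symbol and 142 by an older symbol, while 31 were not matched and 15 hold a date in place of a symbol and are not named. Lengths came from the coding transcript with the best APPRIS tag, which is too short for some genes. The spread over all genes and the length classes used genes with a mean of at least 1 CPM. Median CVs, deviations and counts of gene groups used every listed member, also those under 1 CPM, such as Atp5l. Computing used Python 3.11.15, pandas 2.3.3, numpy 2.4.6 and scipy 1.17.1, and was tested on simulated data. No groups were compared and no p-value was computed.

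Named genes were the 30 highest by mean CPM, the 20 highest per length, the 4 highest members and the lowest of each of 37 lists, the 10 highest and 10 lowest CVs at 10 CPM or more, the 5 lowest genes, and the fixed cell type markers; some genes that the rule takes are not reported here. Genes, lists and members were chosen with earlier results of these data known. Alternatives covered scaling, filter, pseudocount, length and leaving out each library.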

Additional observations from a re-analysis of the deposited data

Results flagged for a closer look

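A library was flagged where its gap to the nearest of the other 3 exceeded, as a part of the range of the 4, Dixon's 95% critical value. Chance flags about 1 in 20 groups. Of 238 results checked 19 were flagged, and over all genes 556 of 10641 (5.23%) passed the same limit.

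Replicate 2 stood apart in lipogenesis, with a share of 0.562% of the reads against 0.529% to 0.531% in the others. Its CPM stood apart as high in Fasn at 460.9, Srebf1 at 160.0, the cholesterol synthesis enzyme Sqle at 173 and Car3 at 55.8. It was low in Sparc at 2792 and the complement protease C1s1 at 74.0.

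Replicate 3 stood apart in DNA replication and mitosis, with 0.303% of the reads against 0.279% to 0.283%. Its CPM stood apart as low in Eef1a1 at 7842, Rpl12 at 2162, Tpt1 at 1589 and the pyruvate carrier Mpc1 at 24.3.

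Replicate 1 stood apart in iron handling, with 0.582% of the reads against 0.563% to 0.565%. Most of this share is Fth1, and the group did not move as a whole. Of its 12 listed genes 4 were highest in replicate 1 and 5 in replicate 4. The CPM of replicate 1 stood apart as high in Fth1 at 3477, Dusp6 at 18.3 and the cystine transporter Slc7a11 at 11.5.

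Replicate 4 stood apart as low in Myc at 81.0 CPM and as high in Hspb1 at 2.87 CPM. Its distance from the mean of the libraries, 2.67%, was below the 3.05% to 3.12% of the others.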

How the results depend on the processing

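Rankings and shares were stable in the alternatives tried, apart from the use of length. For list shares, leaving out a library is no test, since it cannot move a mean of 4 values by more than their SD. Per length the 10 highest genes held 6.96%, the 100 highest 26.6%, and 503 genes held 50% of the total. The distance of a library from the mean was 2.75% with a filter of 10 CPM, and 2.76% to 2.93% with a library left out, where fewer libraries enter the mean. Per length, 33 of 36 list shares moved by more than their SD. Shares that moved by over 1.5 times were higher per length for large and small ribosomal subunits (9.33% and 6.498%), respiratory subunits (3.29%), fatty acid uptake (2.23%), lipolysis (1.78%), iron handling (1.099%), antioxidants (0.960%) and interferon genes (0.378%), and lower for collagens (2.04%), lipogenesis (0.320%) and insulin signalling (0.138%), beside the low lists of endothelial markers and heat-producing fat cells. Fabp4 belongs to both fatty acid uptake and lipolysis and makes up most of both shares per length, so their rise rests largely on this gene. Levels per length depend on the transcript: with the union of all exons, 13 of the 20 highest genes were shared, and Fabp4 stood at 4959 in place of 15339. With TMM scaling, none of 198 named genes moved by more than its SD. Leaving out a library moved none of them either, but it could not, since 1 of 4 values cannot shift their mean by more than their SD. The deviation of libraries by gene group was put through alternatives chosen after seeing the data. With a library left out, 2 deviations of replicate 2 counted as moved and 91 as the same. For replicate 4 the counts were 1 and 92. With the median of a gene's length class removed, insulin signalling and glucose uptake turned from -1.91% to 0.53% in replicate 2, and the cause was not tested. No paired analysis was possible because no groups were compared and the results come from no test. The number of libraries, 4, limits every SD, and reads limit genes under 10 CPM.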

Other observations

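Protein degradation and defence against oxidants were not described above. All 32 proteasome genes were listed and took 0.751% ± 0.0175 of the reads, with 20 among the 1000 highest genes. Psmd2, a regulatory subunit, stood at 491 CPM ± 11.7, Ubb, a ubiquitin gene, at 475 CPM ± 15.5, and Psmb1 and Psmb4, core subunits, at 457 CPM ± 17.9 and 350 CPM ± 4.74, while the core subunit Psmb5 was the lowest of this list at 22.9 CPM ± 0.737. Of 34 antioxidant genes 33 were listed, led by Mgst1, a membrane glutathione transferase, at 862 CPM ± 25.7, Prdx1, a peroxiredoxin, at 631 CPM ± 16.5, Sod1, superoxide dismutase, at 488 CPM ± 23.5 and Prdx2 at 457 CPM ± 9.31.

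In cholesterol synthesis 23 of 24 genes were listed, and 1 was among the 1000 highest genes. Hmgcs1, the synthase that precedes the rate-limiting step, stood at 213 CPM (CV 3.28%), Cyp51 at 192 CPM ± 1.91 and Fdps at 162 CPM ± 11.5, and the lowest was Idi1 at 6.70 CPM ± 0.621. In insulin signalling 27 of 28 genes were listed, led by Akt1 at 506 CPM ± 10.3 and the regulatory subunit Pik3r1 at 352 CPM ± 18.3, with the catalytic subunit Pik3cb the lowest at 7.47 CPM ± 0.578.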
